A study of Homo sapiens with 4 samples.

Results

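The set described here is named for targets of ATF4, the transcription factor of the integrated stress response. Such targets act in stress regulation, in amino acid and serine synthesis, and in the charging of tRNA. The set held 25 named genes and every symbol of the form of a cytosolic aminoacyl-tRNA synthetase (a letter followed by ARS). This gave 42 of the 56655 gene symbols in the count tables. Genes that entered by symbol form were not selected for regulation by ATF4, and whether each is a target was not tested. By role the 42 genes were 12 stress regulators and effectors, 11 synthesis enzymes and 19 genes of tRNA charging. The last were 18 cytosolic synthetases and the tRNA exporter XPOT. No expression value entered the rule.

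Poly(A) RNA was sequenced from OVCAR5, an established ovarian cancer cell line that the labels describe as high grade serous and as derived from ascites. The study asked how loss of the forkhead transcription factor FOXK2 altered expression in these cells. There were 2 groups of 2 libraries. Cells of both groups were transduced with an shRNA vector, which carried a control hairpin in shCtrl and a FOXK2-targeting hairpin in shFOXK2, and were grown untreated in serum-containing RPMI. The study's methods describe stably transduced cells selected with puromycin, so this selection was common to both groups. The labels do not name the hairpin, which the study's legends give as shFOXK2-2, and with a single FOXK2 hairpin an effect of the hairpin and an effect of FOXK2 cannot be told apart. The labels call the libraries biological duplicates without saying whether transductions were separate, so the p-values measure only the spread between these samples.

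ATF4 is a basic leucine zipper factor whose mRNA is translated when eIF2α is phosphorylated by one of the stress kinases PERK, GCN2, HRI and PKR. It binds, usually with a C/EBP family partner, to the C/EBP-ATF response element, and raises genes that restore amino acid supply: serine and one-carbon enzymes, asparagine synthetase, the proline and transsulfuration pathways, and most cytosolic aminoacyl-tRNA synthetases. Other targets limit or end the response, including the pseudokinase TRIB3 and the eIF2α phosphatase subunits PPP1R15A and PPP1R15B.

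Promoter sequence was examined because the response element is the feature that ATF4 targets are known to share. RefSeq (GRCh38.p14) windows from 250 bases before to 50 bases after the start site were at hand for 32 of the 42 genes. The letters TGATGNAA, or TTNCATCA for the other strand, were found in 10 of the 32 windows (31.2%), compared with 1264 of 34796 windows of the same length (3.63%). By role the count was 3 of 10 stress genes, 1 of 7 synthesis enzymes and 6 of 15 tRNA charging genes. In 9 of the 10 the open position was C, giving TGATGCAA, and in ASNS it was A. The 10 sites are printed below because they match the element known from ATF4 targets and belong to genes with different fold changes. Each stretch is 48 bases, read 5′ to 3′ on the strand of the gene, with the element in capitals and the offset of its first base from the start site given after the name.

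CHAC1 (chr15:40953242-40953289, plus strand, offset −209): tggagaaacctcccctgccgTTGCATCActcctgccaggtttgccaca

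PPP1R15B (chr1:204412017-204412064, minus strand, offset −227): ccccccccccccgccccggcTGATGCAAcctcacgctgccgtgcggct

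FGF21 (chr19:48755450-48755497, plus strand, offset −54): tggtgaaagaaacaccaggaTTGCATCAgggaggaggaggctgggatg

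ASNS (chr7:97872449-97872496, minus strand, offset −68): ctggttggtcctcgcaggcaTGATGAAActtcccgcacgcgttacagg

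AARS (chr16:70289666-70289713, minus strand, offset −187): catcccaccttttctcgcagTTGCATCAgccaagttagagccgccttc

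CARS (chr11:3057398-3057445, minus strand, offset −2): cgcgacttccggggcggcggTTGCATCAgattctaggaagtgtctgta

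IARS (chr9:92293683-92293730, minus strand, offset −13): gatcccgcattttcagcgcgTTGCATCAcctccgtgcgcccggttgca

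MARS (chr12:57488044-57488091, plus strand, offset −4): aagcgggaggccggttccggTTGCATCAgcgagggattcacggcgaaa

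NARS (chr18:57621795-57621842, minus strand, offset +15): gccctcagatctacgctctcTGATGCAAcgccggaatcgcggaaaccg

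TARS (chr5:33440947-33440994, plus strand, offset +3): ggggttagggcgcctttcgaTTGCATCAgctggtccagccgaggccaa

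The synthetases AARS, CARS, IARS, MARS, NARS and TARS held 6 of these elements, from 187 bases before to 15 bases after the RefSeq start. The offsets hold for that start only. The GENCODE gene spans given below begin upstream of the elements of CHAC1, AARS and NARS. A match is a description of these letters and not evidence of binding. The forkhead core TGTTTAC, or GTAAACA for the other strand, was found in 0 of the 32 windows and in 1191 of all 34796 (3.42%). Its absence says only that these letters are not in these windows.

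Deposited totals were 14284005 to 21950873 counts per library. FOXK2 itself was at 80.5 and 93.4 CPM (counts scaled by library size and TMM factors) in shCtrl and at 76.3 and 59.6 in shFOXK2. Both shFOXK2 libraries were thus below both shCtrl libraries, but the log2 fold change of −0.36 (95% interval −0.89 to 0.18) did not pass the test (adjusted p-value 0.257). With an offset for GC content it was −0.06 (adjusted p-value 0.786). The study itself reports lower FOXK2 mRNA by qRT-PCR and lower protein by western blot in its shFOXK2 OVCAR5 cells. The 4 epithelial markers EPCAM, KRT8, KRT18 and KRT7 summed to 3508 to 4677 CPM in shCtrl and 3655 to 4789 in shFOXK2. Of the ovarian markers, PAX8 and MUC16 were lower in shFOXK2 and WT1 was at 0 to 2 counts. Markers of other cells were also lower: the 3 endothelial markers summed to 7.72 to 10.6 CPM in shCtrl and 0.633 to 1.98 in shFOXK2 (2 of 3 lower, VWF at 0 to 7 counts, CDH5 at 0 in both shFOXK2 libraries), the 3 leukocyte markers to 17.4 to 22.3 and 8.93 to 9.28 (CD14 alone lower, CD3E and PTPRC at 0 to 3 counts), and the 3 fibroblast markers to 18.8 to 20.3 and 13.1 to 16.1 (PDGFRB alone lower, COL3A1 at 0 to 2 counts). Their part in the results below was not tested. Every library was labelled as the OVCAR5 line, so these markers do not count endothelial, leukocyte or fibroblast cells. Within the line, fewer cells with a transcript and less of it per cell cannot be told apart in bulk RNA.

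Most genes of the set were lower in shFOXK2 or did not pass the test. Of 42 genes, 39 passed the expression filter. Of these 15 (38.5%) fell, 6 (15.4%) rose and 18 did not pass an adjusted p-value of 0.05 in edgeR's quasi-likelihood test, whereas among all 16417 tested genes 22.7% fell and 25.7% rose. The median log2 fold change (shFOXK2 over shCtrl throughout) was −0.41, against 0.04 for all tested genes. The shFOXK2 values were both under the lower shCtrl value for 24 genes (61.5%, background 36.2%) and both over the higher one for 10 (25.6%, background 39.2%), and the groups overlapped for 5. These shares are descriptions, since the genes were chosen with earlier results of these libraries known.

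**Figure D1:**
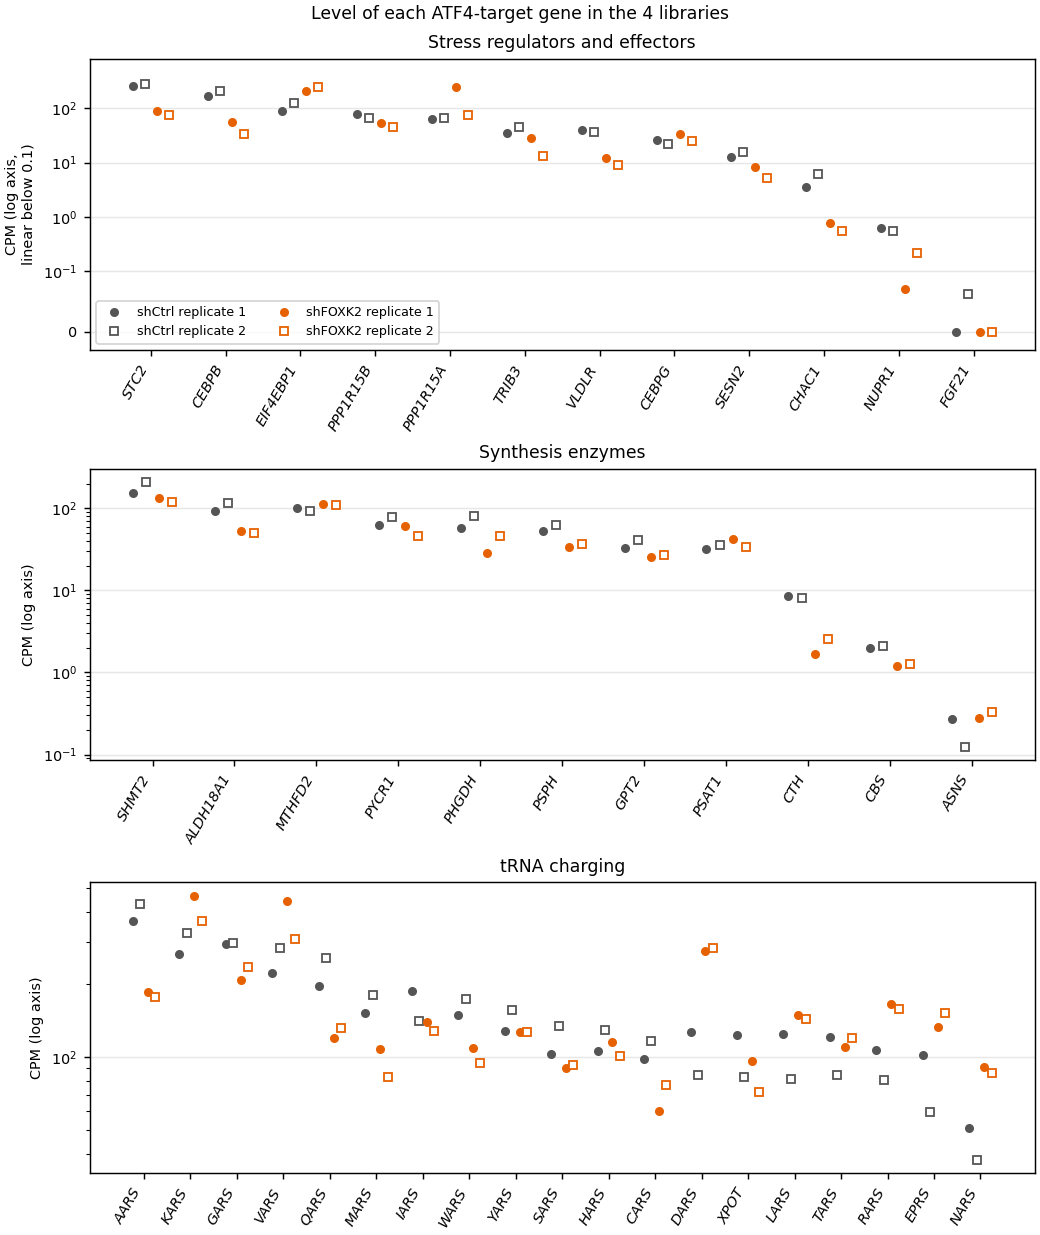
Level of each of the 42 genes in CPM (log axis, linear below 0.1 CPM in the upper panel) in the 2 shCtrl (grey) and 2 shFOXK2 (orange) libraries, by role and ordered by shCtrl mean. Among the stress genes the orange points of CHAC1, CEBPB, VLDLR and STC2 sit well under the grey ones, whereas those of DARS, EPRS, RARS and NARS among the synthetases sit above them.

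The 3 genes below the filter were FGF21, NUPR1 and ASNS. For FGF21, a starvation hormone, the counts were 0 and 1 in shCtrl against 0 and 0 in shFOXK2. For NUPR1, a stress-induced chromatin protein, they were 14 and 9 against 1 and 4. For ASNS, asparagine synthetase, they were 6 and 2 against 4 and 6. FGF21 and ASNS were near or under the floor of 3 counts (0.135 to 0.211 CPM) in both groups, and a change was not detectable from these counts. Overlaps with genes that lack a name were not examined, and whether the counting step lost reads of ASNS was not tested. NUPR1 passed when no filter was applied (adjusted p-value 0.0304) but not by DESeq2 (0.256). ASNS is often used as a readout of ATF4. At 0.0825 CPM per kb of transcript in shCtrl, it was the lowest of the synthesis enzymes, the others ranging from 0.820 for CBS to 83.2 for SHMT2.

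The stress regulators and effectors held both the largest falls and opposing rises. Of 10 tested, 6 fell (CHAC1, CEBPB, VLDLR, STC2, SESN2 and TRIB3), PPP1R15A and EIF4EBP1 rose, and PPP1R15B and CEBPG did not pass. The median log2 fold change was −0.998 and the range −2.90 to 1.31. The shares that fell and rose were 60% and 20%, against 22.7% and 25.7% of all tested genes.

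CHAC1 (chromosome 15, 40952962 to 40956512), a γ-glutamylcyclotransferase that degrades glutathione, was at 3.59 and 6.29 CPM in shCtrl against 0.773 and 0.549 in shFOXK2. The shFOXK2 level was 13.4% of shCtrl (log2 fold change −2.90, SE 0.46, adjusted p-value 2.40e-04), the largest fall among the 39 genes tested, although from a low level. CEBPB (chromosome 20, 50190830 to 50192668), a C/EBP factor that can pair with ATF4, was at 164.8 and 206.1 CPM in shCtrl against 54.8 and 34.1 in shFOXK2. Each shFOXK2 value was less than each shCtrl value by a wide margin (−2.06, SE 0.28, adjusted p-value 7.98e-05). Its family member CEBPG, which dimerizes with ATF4 on amino acid genes, was at 26.4 and 22.1 CPM in shCtrl against 33.1 and 24.7 in shFOXK2, so that the groups overlapped (0.25, adjusted p-value 0.472).

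STC2 (chromosome 5, 173314723 to 173328447), a secreted stanniocalcin, was at 254.8 and 275.9 CPM in shCtrl against 90.6 and 73.6 in shFOXK2. This was a fall to 30.9% (−1.69, SE 0.24, adjusted p-value 1.02e-04) at one of the highest levels of the group. VLDLR (chromosome 9, 2621182 to 2660056), a lipoprotein receptor, was at 39.8 and 37.1 CPM in shCtrl against 12.0 and 9.01 in shFOXK2. The replicates lay close together and the groups far apart (−1.87, SE 0.28, adjusted p-value 1.64e-04). SESN2 (chromosome 1, 28259518 to 28282491), a leucine sensor that restrains mTORC1, was at 12.9 and 15.3 CPM in shCtrl against 8.37 and 5.22 in shFOXK2. It fell to 48.0% (−1.06, SE 0.33, adjusted p-value 0.0167), but without shFOXK2 replicate 2 the fall was −0.78 and did not pass (0.108). TRIB3, which binds and restrains ATF4, was at 34.6 and 45.8 CPM in shCtrl against 28.9 and 13.2 in shFOXK2. The shFOXK2 replicate 1 value was nearer to shCtrl, and the call (−0.94, SE 0.34, adjusted p-value 0.0371) was lost without shFOXK2 replicate 2 (−0.51, 0.308).

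The eIF2α phosphatase subunits had fold changes of opposite sign, and the difference was not tested. PPP1R15A (GADD34, chromosome 19, 48872212 to 48876059), the stress-inducible subunit, was at 62.3 and 67.0 CPM in shCtrl against 247.0 and 74.5 in shFOXK2. Replicate 1 of shFOXK2 stood apart while replicate 2 was close to shCtrl. The rise (1.31, SE 0.40, adjusted p-value 0.0161) thus rested on that library, and without it the log2 fold change was 0.18 (adjusted p-value 0.707). PPP1R15B, the constitutive subunit, was at 78.8 and 65.5 CPM in shCtrl against 52.4 and 44.6 in shFOXK2 (−0.57, adjusted p-value 0.0739), and passed as lower with the GC offset (−0.59, 0.0218). EIF4EBP1 (chromosome 8, 38030534 to 38060365), which binds eIF4E and represses cap-dependent translation, was at 88.5 and 124.6 CPM in shCtrl against 205.8 and 247.7 in shFOXK2. It rose to 212.9% of shCtrl (1.09, SE 0.25, adjusted p-value 0.00305), and passed without any single library (0.83 to 1.28).

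Among the synthesis enzymes some fell and none rose past the threshold. Of 10 tested, 4 fell (CTH, ALDH18A1, PHGDH and PSPH, 40%) and 6 did not pass. Among all tested genes 22.7% fell and 25.7% rose. The median log2 fold change was −0.61 and the range −1.96 to 0.20. Summed over the 11 enzymes the level was 596.0 and 721.3 CPM in shCtrl against 493.8 and 472.5 in shFOXK2.

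In the serine pathway the first and last enzymes passed the test and the middle one did not. PHGDH, which commits 3-phosphoglycerate to serine, was at 57.9 and 79.9 CPM in shCtrl against 28.9 and 45.7 in shFOXK2, and fell (−0.88, SE 0.29, adjusted p-value 0.0224). This call was lost without shFOXK2 replicate 1 (−0.62, 0.168). PSAT1, the next enzyme, was at 32.0 and 35.6 CPM in shCtrl against 42.2 and 34.1 in shFOXK2. The groups overlapped (0.17, 95% interval −0.38 to 0.73, adjusted p-value 0.604). PSPH, the last enzyme, was at 52.7 and 62.6 CPM in shCtrl against 33.3 and 37.0 in shFOXK2, and fell (−0.71, SE 0.25, adjusted p-value 0.0319). The call was lost when shCtrl replicate 2 or either shFOXK2 library was left out, the largest adjusted p-value being 0.143. The mitochondrial folate enzymes SHMT2 (−0.50, adjusted p-value 0.109) and MTHFD2 (0.20, 0.500), which pass the serine carbon on, did not pass. Differences between these fold changes were not tested.

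The largest fall among the enzymes was that of CTH (chromosome 1, 70411218 to 70439851), cystathionine γ-lyase, which makes cysteine in the last step of transsulfuration. It was at 8.43 and 8.10 CPM in shCtrl against 1.69 and 2.53 in shFOXK2. The groups were well separated at this low level (−1.96, SE 0.36, adjusted p-value 6.63e-04). CBS, the enzyme before it, was at 1.97 and 2.12 CPM in shCtrl against 1.20 and 1.26 in shFOXK2 (−0.73, adjusted p-value 0.150). CBS has an identical copy in the annotation, CBSL, which had 0 to 1 counts, so its count is uncertain. ALDH18A1 (chromosome 10, 95605941 to 95656711), which makes the proline precursor pyrroline-5-carboxylate, was at 94.0 and 114.7 CPM in shCtrl against 52.7 and 50.05 in shFOXK2. It fell to 49.2% (−1.02, SE 0.25, adjusted p-value 0.00389). PYCR1, which completes proline synthesis (−0.41, adjusted p-value 0.217), and the mitochondrial alanine transaminase GPT2 (−0.50, 0.128) did not pass.

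Set side by side, the stress genes and the synthesis enzymes had similar medians in 1 shFOXK2 library and different ones in the other. With each gene centred on its shCtrl mean, the stress genes had a median of −0.60 in shFOXK2 replicate 1 and −1.51 in replicate 2, the synthesis enzymes −0.64 and −0.60, and the tRNA charging genes −0.07 and −0.22. The shCtrl libraries lay within 0.134 of 0 in each role. The gap between stress genes and enzymes was therefore seen in replicate 2 alone, and whether the roles differ was not tested.

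**Figure D2:**
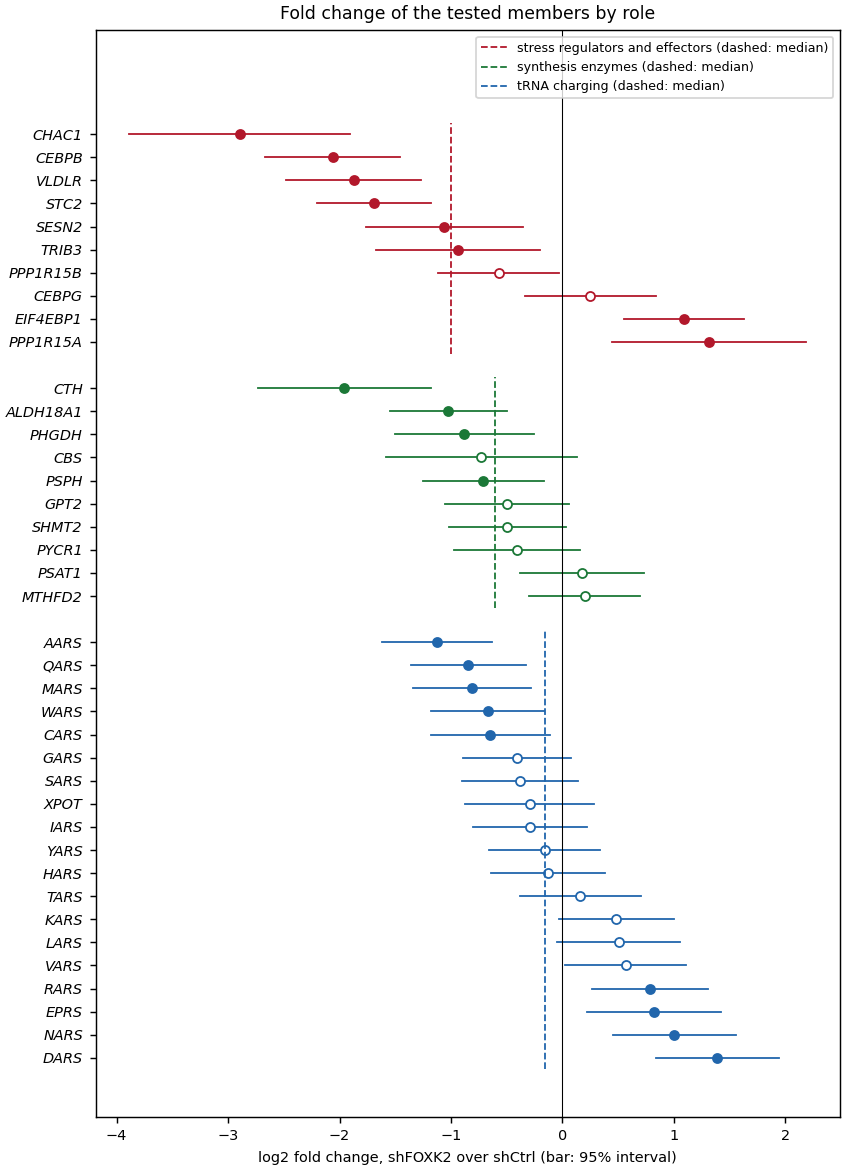
Log2 fold change of the 39 tested genes (points) with 95% intervals (bars), grouped by role, where filled points passed the adjusted p-value threshold of 0.05 and dashed lines are the medians of −0.998, −0.61 and −0.16. The stress genes span −2.90 to 1.31, and the synthetases split into 5 filled points below 0 and 4 above.

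The tRNA charging genes split. Of 19 tested, AARS, QARS, MARS, WARS and CARS fell (26.3%) and DARS, NARS, EPRS and RARS rose (21.1%), shares near those of all tested genes. The median was −0.16, which changed sign to 0.079 with a GC offset, and the range −1.12 to 1.39. Summed over the 18 cytosolic synthetases, the level was 2912 and 3059 CPM in shCtrl against 3103 and 2872 in shFOXK2, so that the groups overlapped.

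AARS, alanyl-tRNA synthetase (chromosome 16, 70251983 to 70289707), was at 367.0 and 428.3 CPM in shCtrl against 186.5 and 178.3 in shFOXK2. It fell to 45.9% (−1.12, SE 0.23, adjusted p-value 0.00135), the largest fall among the synthetases. The gene overlaps DDX19B, and reads of the pair cannot be told apart without strand. DARS, aspartyl-tRNA synthetase (chromosome 2, 135905881 to 135986100), was at 127.9 and 84.3 CPM in shCtrl against 274.6 and 282.0 in shFOXK2. It rose to 262.2% (1.39, SE 0.26, adjusted p-value 6.73e-04). NARS, asparaginyl-tRNA synthetase (chromosome 18, 57600656 to 57622213), was at 51.0 and 37.7 CPM in shCtrl against 91.5 and 86.5 in shFOXK2. It rose to 200.5% (1.00, SE 0.26, adjusted p-value 0.00561).

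The other calls were smaller. QARS (−0.84), MARS (−0.81), WARS (−0.67) and CARS (−0.65) fell with adjusted p-values of 0.0103, 0.0144, 0.0303 and 0.0458. EPRS (0.82) and RARS (0.79) rose with adjusted p-values of 0.0260 and 0.0161. Of these, only QARS passed with any 1 library left out. The call was lost for MARS without shFOXK2 replicate 2 (−0.66), and for EPRS (lowest value 0.41), RARS (0.52), WARS (−0.60) and CARS (−0.50) without shCtrl replicate 2 and, separately, without 1 shFOXK2 library. Not passing were VARS (0.57), LARS (0.51), KARS (0.48), GARS (−0.41), SARS (−0.38), XPOT (−0.29), IARS (−0.29), TARS (0.16), YARS (−0.16) and HARS (−0.13). With the GC offset KARS (0.67, adjusted p-value 0.0179) and VARS (0.86, 0.00528) passed as higher and XPOT (−0.64, 0.0257) as lower. MARS overlaps ARHGAP9 and DDIT3, WARS overlaps WDR25, and HARS overlaps HARS2, so parts of their counts are uncertain.

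Members of the multi-synthetase complex, which binds several cytosolic synthetases, did not all move one way. EPRS, RARS and DARS belong to it and rose, MARS and QARS belong to it and fell, and its members LARS, IARS and KARS did not pass. Of 5 further genes of synthetase assembly, AIMP1 (log2 fold change 2.54, adjusted p-value 1.19e-05) and EEF1E1 (1.72, 5.09e-04), which are scaffold proteins of the complex, and FARSB (1.49, 2.01e-04), the β subunit of phenylalanyl-tRNA synthetase, rose. FARSA, its α subunit, was at 0.37 (adjusted p-value 0.255) and AIMP2 at −0.47 (0.163). The share of the 5 that rose was 60%, against 25.7% of all tested genes. AIMP2 overlaps EIF2AK1, so part of its count is uncertain.

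The mitochondrial synthetases, encoded by separate nuclear genes, gave a comparison within the same amino acid. Of 17 tested, PARS2 fell (−0.95, adjusted p-value 0.0316), CARS2 (0.98, 0.00743) and SARS2 (1.58, 0.00639) rose, and 14 did not pass. The shares that fell (5.88%) and rose (11.8%) were below those of all tested genes (22.7% and 25.7%), and the median was −0.11. Opposite signs were seen for CARS (−0.65) and CARS2 and for SARS (−0.38) and SARS2. The largest cytosolic fall, in AARS, stood against −0.11 for AARS2.

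**Figure D3:**
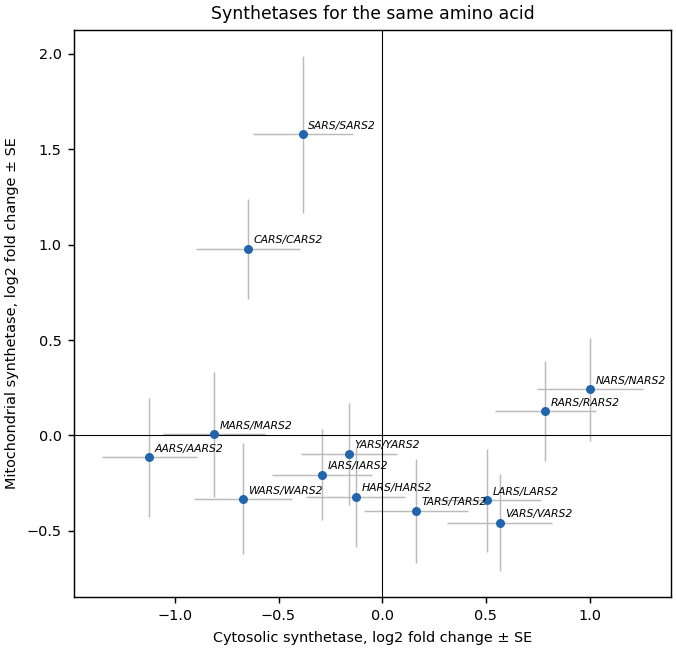
Log2 fold change of the cytosolic synthetase (horizontal axis) against that of the mitochondrial synthetase (vertical axis) for 13 of the amino acids that have both genes, with SE bars. Points lie in all 4 quadrants, and CARS2 and SARS2 lie highest on the vertical axis, at 0.98 and 1.58.

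The split among the synthetases ran with the base composition of their transcripts. The 4 that rose had 30.2 to 32.4% A in the GENCODE canonical transcript and the 5 that fell had 23.3 to 26.2%, with 9 that did not pass at 19.3 to 31.6%. Spearman's rho between A content and log2 fold change was 0.711 over the 18 cytosolic synthetases, 0.142 over the 17 mitochondrial ones and 0.52 over the 39 tested genes. It was 0.326 over 14404 of all tested genes. Genes of the same libraries are not independent, so these are descriptions. When the A-content trend of each library was removed by an offset, which shifted the median of all genes by 0.17, DARS (0.50, adjusted p-value 0.0279) and NARS (0.65, 0.0122) still rose and AARS (−0.78, 0.00414) and QARS (−0.47, 0.0486) still fell. RARS (0.15, 0.496), MARS (−0.46, 0.0537), WARS (−0.37, 0.0937) and CARS (−0.34, 0.168) no longer passed and EPRS changed sign (−0.15, 0.479). TARS, with 31.5% A, changed sign and passed as lower (−0.56, 0.0179), IARS passed as lower (−0.45, 0.0446), and VARS, with 19.3% A, passed as higher (0.93, 0.00331). The 5 genes of synthetase assembly divided in a similar way. AIMP1 (34.37% A), EEF1E1 (32.19%) and FARSB (30.53%) rose, whereas FARSA (19.99%) and AIMP2 (24.04%) did not pass. Whether those 3 rises remain with the A-content offset was not tested.

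Among the other roles the offset left 5 stress genes lower and 2 higher, and 2 synthesis enzymes lower. CHAC1 (−2.56), CEBPB (−1.77), VLDLR (−1.99), STC2 (−1.38), SESN2 (−0.70), CTH (−1.71) and ALDH18A1 (−0.69) remained past the threshold, and EIF4EBP1 (1.45) remained higher. TRIB3 (−0.61, adjusted p-value 0.106), PHGDH (−0.52, 0.126) and PSPH (−0.37, 0.110) did not pass. Over all roles the offset gave 11 lower and 5 higher. What part of the changes belongs to composition was not tested.

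**Figure D4:**
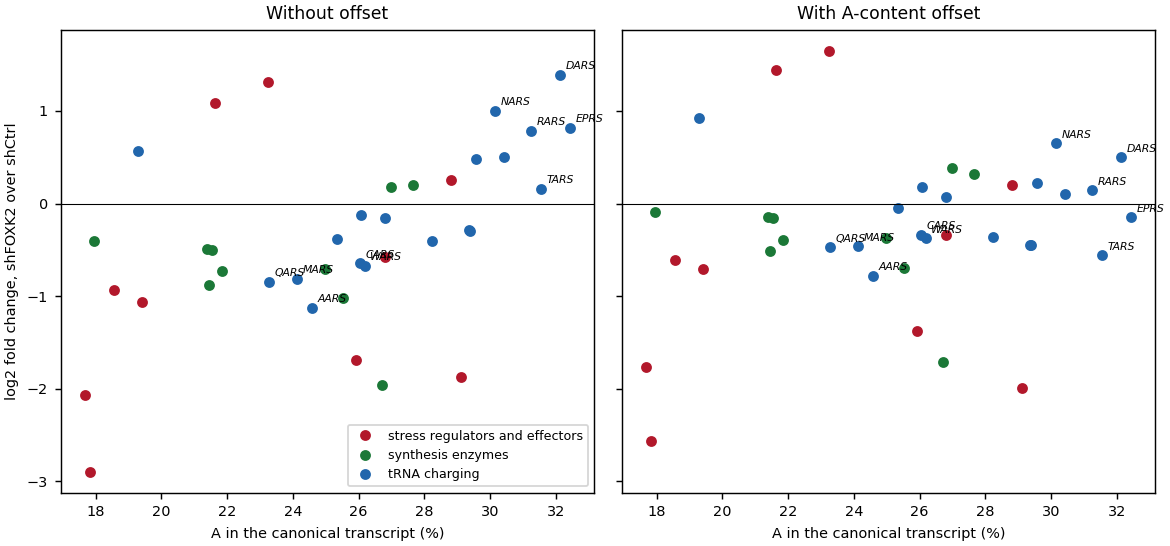
Log2 fold change of the 39 tested genes against the A content of the canonical transcript in percent, without (left) and with (right) a library-wise A-content offset, coloured by role. On the left the synthetases climb from AARS at 24.6% A to DARS at 32.1% A, and on the right DARS and NARS stay above 0 while EPRS and TARS lie below it.

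Genes that fell were found with and without the response element in the window. Of the 10 genes whose promoter held it, 8 were tested, 4 fell (CHAC1, AARS, CARS and MARS) and NARS rose, with a median log2 fold change of −0.61. Of the 22 genes with a window but no element, all tested, 10 fell and 3 rose, with a median of −0.54. The shares that fell and rose were 50% and 12.5% with the element and 45.5% and 13.6% without it. Among all tested genes they were 22.7% and 25.7%. Only a single window per gene was searched, so an element elsewhere would be missed. NARS and AARS, whose elements are printed above, moved in opposite directions.

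ATF4 mRNA and the genes upstream of it were examined next, since the study follows the unfolded protein response. ATF4 was at 147.2 and 180.5 CPM in shCtrl against 158.2 and 123.0 in shFOXK2. The groups overlapped, and the log2 fold change of −0.22 (95% interval −0.74 to 0.30, adjusted p-value 0.476) changed sign under the GC and A-content offsets. ATF4 is controlled largely at translation, which these data do not measure. The study reports, from western blots, that the PERK, eIF2α and ATF4 branch was unaltered by FOXK2 knockdown in OVCAR5 and OVCAR3. Those blots measured protein, whereas the values here are of mRNA. How the EIF2AK3 (PERK) and EIF2S1 (eIF2α) mRNA changes given below relate to the blots was not tested. Among the partners of ATF4 and related factors, DDIT3 (CHOP, 0.55, adjusted p-value 0.175), ATF3 (−0.73, 0.134) and ATF5 (−0.33, 0.303) did not pass. DDIT3 passed as higher with the GC offset (0.85, 0.0266), and it overlaps MARS and MBD6, so part of its count is uncertain.

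Of the 14 tested genes of this upstream and partner list, 2 fell (14.3%) and 3 rose (21.4%). Both shares were below those of all tested genes (22.7% and 25.7%). The eIF2α kinases moved in different directions. EIF2AK3, which encodes PERK, was at 35.4 and 20.2 CPM in shCtrl against 8.998 and 9.17 in shFOXK2, and fell (−1.61, SE 0.32, adjusted p-value 0.00115). EIF2AK1, which encodes the heme-regulated kinase HRI, was at 395.0 and 382.9 CPM in shCtrl against 199.9 and 194.6 in shFOXK2. It fell (−0.98, SE 0.22, adjusted p-value 0.00291), and it overlaps AIMP2 and ANKRD61, so part of its count is uncertain. EIF2AK4, which encodes the amino acid sensor GCN2, was at 93.3 and 90.6 CPM in shCtrl against 145.4 and 175.5 in shFOXK2, and rose (0.80, SE 0.23, adjusted p-value 0.0121). The groups did not overlap for any of these 3 kinases. Among all tested genes both shFOXK2 libraries were below both shCtrl libraries in 36.2% and above them in 39.2%. The call for EIF2AK4 was lost without shCtrl replicate 2 or shFOXK2 replicate 2 (lowest value 0.63). EIF2AK2, which encodes PKR, was at 134.1 and 63.8 CPM in shCtrl against 115.3 and 103.8 in shFOXK2 (0.15, adjusted p-value 0.724), the shCtrl libraries lying on either side of shFOXK2. EIF2S1, which encodes eIF2α, rose (0.89, adjusted p-value 0.00975), as did EIF2B3 (1.05, 0.00618), a subunit of its exchange factor eIF2B. The other eIF2B subunits EIF2B1 (0.20), EIF2B2 (−0.38), EIF2B4 (0.25) and EIF2B5 (−0.11) did not pass. EIF2S1 did not pass with the GC offset (0.23, adjusted p-value 0.274) or the A-content offset (0.11, 0.606), whereas EIF2B4 then passed as higher (0.59 with each, adjusted p-values 0.0223 and 0.0264). The call for EIF2S1 was also lost without shCtrl replicate 2 (adjusted p-value 0.110) and that for EIF2B3 without shFOXK2 replicate 1 (0.0513).

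**Figure D5:**
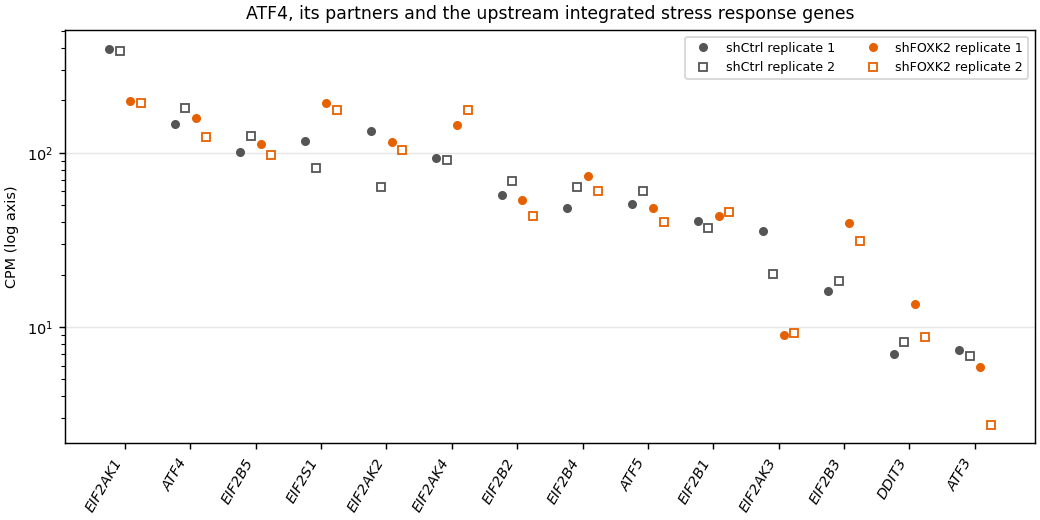
Level in CPM (log axis) of ATF4, related factors, eIF2α kinases and eIF2/eIF2B subunits in the 2 shCtrl (grey) and 2 shFOXK2 (orange) libraries. EIF2AK1 and EIF2AK3 are lower in both shFOXK2 libraries, EIF2AK4, EIF2S1 and EIF2B3 are higher, and the ATF4 values overlap between 123.0 and 180.5.

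Other enzymes of the same pathways, not among the 42 genes, included falls and rises, at shares to be read against 22.7% and 25.7% of all tested genes. Of 17 tested genes of other amino acid metabolism, 5 fell (29.4%) and 2 rose (11.8%), with a median log2 fold change of −0.01. ASS1, which makes argininosuccinate for arginine synthesis, fell to 12.4% of shCtrl (−3.01, adjusted p-value 7.27e-06), and GLUL, glutamine synthetase (−1.16, 0.00140), also fell. The other falls were those of OAT (−1.15), AHCY (−0.88) and GOT1 (−0.74). PRODH, proline dehydrogenase, which degrades proline, rose (1.24, 0.0321), as did GCLM (1.15, 0.00397), the modifier subunit of glutathione synthesis. Of 14 tested genes of folate and serine metabolism, 2 fell (14.3%) and 3 rose (21.4%), both shares below those of all tested genes, with a median of 0.08. ALDH1L1 (−0.91, adjusted p-value 0.0123) was among those that fell, whereas the mitochondrial folate carrier SLC25A32 (1.55, 7.02e-04), MTHFD2L (1.07, 0.0176) and thymidylate synthase, TYMS (0.93, 0.00625), rose.

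Of the 21 genes among the 42 that passed, 11 kept their direction and their call in each of 15 alternatives, of which 4 left out 1 library. These were CHAC1, CEBPB, STC2, VLDLR, CTH, ALDH18A1, AARS and QARS, which fell, and EIF4EBP1, DARS and NARS, which rose. The other 10 were PPP1R15A, SESN2, TRIB3, PHGDH, PSPH, MARS, WARS, CARS, EPRS and RARS.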

How the data were processed

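RNA was measured in 4 OVCAR5 libraries, 2 shCtrl and 2 shFOXK2, grouped by their labels. One table of raw counts by gene symbol was deposited for each library. The submitters' processing notes name STAR 2.5.2, HTSeq, edgeR and hg38, and the study's methods describe single-end reads. The annotation and the strand setting are not given in the sources used here, so antisense and overlapping genes cannot be told apart. From these counts, genes passing filterByExpr were fitted with edgeR 4.0.16 (R 4.3.3, TMM scaling, quasi-likelihood F test, 2-sided), p-values of all 16417 fitted genes being adjusted together by Benjamini-Hochberg and read at 0.05. Values are means of n = 2 libraries per group, SE is that of the fitted log2 fold change, and depth of 14284005 to 21950873 counts set a floor of 3 counts. Coordinates, overlaps and transcript composition came from GENCODE release 44 (GRCh38), which matched 36921 of 56655 symbols (65.2%), older synthetase symbols such as AARS being matched to AARS1. Promoter windows were from RefSeq.

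The 42 genes, their roles and the context lists were chosen with earlier results of these data known. Values in every library were given for each of the 42 genes past the threshold with an absolute log2 fold change of at least 1, and the 4 largest changes past the threshold were named for each context list, apart from items that are not reported here. TRIB3, PHGDH, PSAT1, PSPH, PPP1R15B, CEBPG and CBS, the eIF2α kinases and ATF4 received the same treatment, and AARS2, FARSA, AIMP2, ALDH1L1, OAT, AHCY and GOT1 were named, after their values were seen. The alternatives were DESeq2 1.42.0, DESeq2 size factors, library size alone, no filter, at least 10 counts in every library, robust moderation, GC and A-content offsets (lowess trends per library, span 0.2), a replicate block, and leaving out each library. The test was checked on simulated data.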

Additional observations from a re-analysis of the deposited data

How the results depend on the processing

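The counts of genes past the threshold, over all genes and among the 42, stayed within 1.5 times of their main values under each alternative run. Labels with the same replicate number do not name a shared batch, and the deviations of same-numbered libraries correlated at −0.103. With the replicate block 7270 of all genes and 18 of the 42 passed (12 lower, 6 higher), each of the 18 also passing without it. A block with the numbers crossed, added after seeing the data, gave 8350 and 23. The offsets moved the median of all genes by 0.17 (A content) and 0.13 (GC), and no filter by −0.10.

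The median log2 fold change of the stress genes was −1.48 with no filter, because FGF21 and NUPR1 then entered, and −1.46 to −0.78 with 1 library left out. That of the synthesis enzymes was −0.28 under the GC offset, −0.28 with the replicate block added to it, −0.26 with the A-content offset, and −0.78 to −0.54 with 1 library left out. That of the tRNA charging genes reversed to 0.079 with the GC offset and 0.082 with the block added. For the genes below the cause of a change in sign was not tested. With the GC offset CEBPG was −0.043, MTHFD2 −0.14, HARS 0.22, YARS 0.17, ATF4 0.13, ATF5 0.025, EIF2AK2 −0.43 and EIF2B5 0.24. With the replicate block added to the GC offset these were −0.056, −0.14, 0.22, 0.18, 0.12, 0.024, −0.41 and 0.25. With the A-content offset EPRS was −0.15, HARS 0.18, TARS −0.56, YARS 0.065, ATF4 0.11, ATF5 0.036, EIF2AK2 −0.46 and EIF2B5 0.23. With 1 library left out TARS ranged from −0.15 to 0.41, EIF2AK2 from −0.37 to 0.74 and PSAT1 from −0.012 to 0.29. In these fits the lone library was assumed to vary like the other group.

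Precision was limited by 2 libraries per group and, for CHAC1, CTH, CBS, SARS2, PRODH and the 3 genes below the filter, by low counts.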
